A study of Mus musculus with 36 samples.

Results

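The genes described here are 9 that carcinoma cells of glandular origin commonly express: the keratins Krt7, Krt8, Krt18, Krt19 and Krt20, the surface protein gene Epcam, the cadherin gene Cdh1, and the claudin genes Cldn4 and Cldn7. They were taken by gene symbol from the deposited tables of tumour-associated macrophages (TAM), where they are 9 of 57252 gene models in mice bearing MC38 colon carcinoma and 9 of 56575 in mice bearing B16-F10 melanoma. Cdh1 rose with both treatments in MC38 TAM under every setting run, and rose in B16-F10 TAM by calls near the threshold that several settings lose. In MC38 TAM its mean level went from 1.14 FPKM after PBS to 14.2 after OMV-SIRP and 28.2 after OMV-SIRP-G. The other 8 genes were low, with levels that varied widely between libraries of a group, and gave no difference between groups that passed the test. In B16-F10 TAM most of their reads lay in 1 library of the OMV-SIRP-G group.

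The series sequenced RNA of wild-type mice (WT in the labels) given OMV-SIRP, OMV-SIRP-G or, as controls, phosphate-buffered saline (PBS). The first 2 are hybrid particles built on engineered outer membrane vesicles (OMV), which bacteria shed. The labels do not spell out SIRP or G and give no mouse strain, age, sex, dose, time or sorting step. Each tumour model has 3 libraries per group, 18 in all, out of 36 libraries and 4 cell populations in the series. The study's text speaks of pooling 3 samples of each group, and nothing says that the 3 libraries came from separate mice, so the p-values below measure only the spread between these libraries, which may be technical. FPKM is fragments per kilobase of gene length, scaled for library depth, a level that can be compared between genes within a library. The MC38 and B16-F10 tables were scaled apart, so every test stayed within a tumour model. MC38 is a cell line from a mouse colon tumour and B16-F10 one from a mouse melanoma. No library of the tumour cells alone was analysed here, so their own level of the 9 genes is not given.

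Keratins are the filament proteins of epithelial cells and work as pairs of a type II and a type I chain. Krt8 (type II) pairs with Krt18 (type I) in all simple epithelia, Krt7 and Krt19 join them in ducts and glands, and Krt20 marks the intestinal lining. Epcam is a surface protein of epithelial cells and a common handle for catching carcinoma cells. Cdh1 encodes E-cadherin, which holds neighbouring epithelial cells together at adherens junctions, and Cldn4 and Cldn7 are claudins of the tight junctions that seal the sheet. Cdh1 is not restricted to epithelium: Langerhans cells and some other myeloid cells and blood progenitors also make it. Carcinoma cells that turn mesenchymal lose most of these genes, and the repressors Snai1, Snai2, Zeb1 and Zeb2, which bind E-box letters in their promoters, are known for this.

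Depth ranged from 13036567 to 16737363 gene-assigned reads over the 18 libraries, and values of log2(FPKM + 1) correlated between replicates at 0.810 to 0.950 in MC38 TAM and at 0.929 to 0.976 in B16-F10 TAM, across genes. The MC38 PBS libraries were low in macrophage RNA. The sum of 12 macrophage markers was 264 to 535 FPKM there, against 2454 to 6052 after OMV-SIRP, 3517 to 3663 after OMV-SIRP-G, and 4731 to 12046 in the B16-F10 libraries. In B16-F10 TAM 9 melanocyte markers summed to 3079 to 3363 FPKM after PBS and to 846 to 952 after OMV-SIRP-G, and in MC38 TAM to at most 3.39. Mitochondrial genes took 2.98 to 5.07% of reads in MC38 PBS libraries, 15.2 to 21.5% after OMV-SIRP and 6.06 to 6.46% after OMV-SIRP-G, and 13 to 21.3% in B16-F10 libraries. Some libraries stood apart in protein-coding genes present at 5 FPKM or more and at least 10 times the highest of the other 8 libraries, a measure chosen after the values were seen. MC38 PBS replicate 3 had 29 such genes, OMV-SIRP replicate 1 had 48, led by genes of nervous tissue such as Gpm6a at 29.8 FPKM, and OMV-SIRP replicate 2 had 17, led by the cartilage collagen Col2a1 at 48.8 FPKM. B16-F10 OMV-SIRP-G replicate 1 had 17, and each of the other 14 tumour libraries had at most 2. Fewer cells of a type and less RNA per cell cannot be told apart in such bulk samples.

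Of the 9 genes, 3 in each model reached the level asked for testing, 1 FPKM in at least 3 of the 9 libraries. These were Krt18, Epcam and Cdh1 in MC38 TAM and Krt8, Krt18 and Cdh1 in B16-F10 TAM. The remaining 6 in each model were below it. No read at all fell on the gene in 41 of the 81 pairs of a gene and a library in MC38 TAM, and in 42 of 81 in B16-F10 TAM. Krt20 had no read in any MC38 library, where 3 reads, the limit that a count of 0 allows, would be 0.0773 to 0.115 FPKM. Cldn4 had none in any B16-F10 library, with a limit of 0.106 to 0.122 FPKM.

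**Figure D1:**
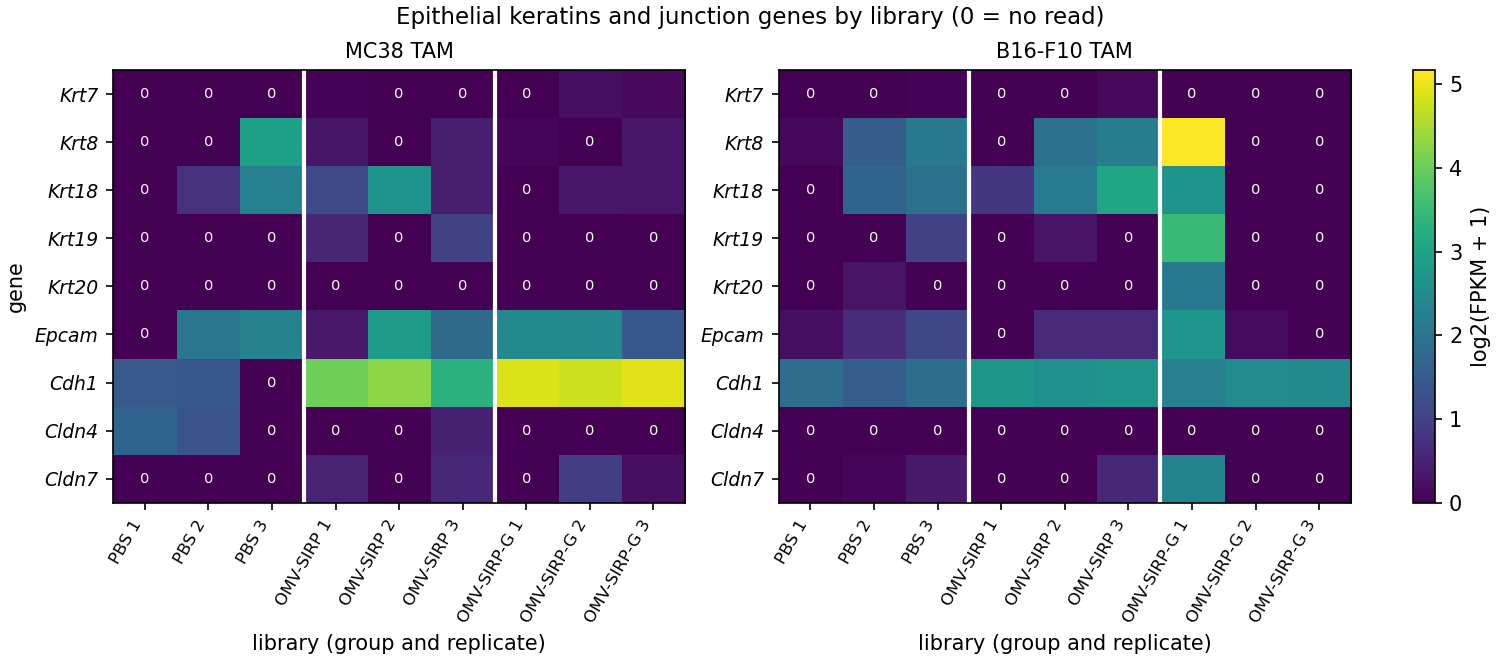
Level of each of the 9 genes, as the colour of log2(FPKM + 1), in each of the 9 libraries of MC38 TAM (left) and B16-F10 TAM (right); a 0 marks a library with no read of the gene. Cdh1 is the brightest row in MC38 TAM after both treatments, and in B16-F10 TAM the keratins are brightest in OMV-SIRP-G replicate 1, where Krt8 reached 34.9 FPKM.

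The type II keratin gene Krt8 (ENSMUSG00000049382) lies on chromosome 15 of GRCm38, from 101996698 to 102004482 on the minus strand, and its partner Krt18 (ENSMUSG00000023043) lies close by, from 102028180 to 102032027 on the plus strand, with 23697 bases between them. Krt8 was at 0, 0 and 6.62 FPKM in MC38 PBS replicates 1 to 3, at 0.227, 0 and 0.358 after OMV-SIRP, and at 0.0648, 0 and 0.243 after OMV-SIRP-G. Of its 229 MC38 reads, 88.2% came from PBS replicate 3, one of the libraries that stood apart. Krt18 was at 0, 0.656 and 3.8 FPKM after PBS, at 1.19, 5.3 and 0.355 after OMV-SIRP, and at 0, 0.252 and 0.248 after OMV-SIRP-G. Its PBS and OMV-SIRP values overlapped, and all 3 OMV-SIRP-G values lay below all 3 of OMV-SIRP. The change of Krt18 against PBS was 0.41 ± 0.69 (SE) on the log2(FPKM + 1) scale after OMV-SIRP (limma, Benjamini-Hochberg adjusted p = 0.737) and -0.78 ± 0.69 after OMV-SIRP-G (limma adjusted p = 0.460). OMV-SIRP-G less OMV-SIRP was -1.19 ± 0.69 (limma adjusted p = 0.567), so the lower values after OMV-SIRP-G were not beyond the spread of libraries. The 2 highest Krt18 values, 5.3 and 3.8 FPKM, were in the 2 MC38 libraries with the fewest genes detected, OMV-SIRP replicate 2 and PBS replicate 3.

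The other keratins were rarer still in MC38 TAM. Krt7 (chromosome 15, 101411043 to 101430313, plus strand), a type II keratin of ducts, had reads in 3 of 9 libraries and never passed 0.146 FPKM. Krt19 (chromosome 11, 100140810 to 100148665, minus strand), a type I keratin of glands, had reads only in OMV-SIRP replicates 1 and 3, at 0.479 and 0.996 FPKM. Krt20 (chromosome 11, 99428403 to 99438150, minus strand) had none. The lncRNA genes Gm671 and Gm36026 overlap Krt7 and Krt8 on the opposite strand, at no more than 0.41 and 0.0798 FPKM, and whether the counting used strand is not given in the sources used here. Together the 5 keratins summed to 0, 0.656 and 10.4 FPKM in the PBS libraries, 1.92, 5.3 and 1.71 after OMV-SIRP, and 0.0648, 0.398 and 0.584 after OMV-SIRP-G. No group was uniformly high, and the highest sum was in a PBS library.

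In B16-F10 TAM Krt8 was at 0.0754, 1.87 and 3.25 FPKM after PBS, at 0, 2.78 and 3.47 after OMV-SIRP, and at 34.9, 0 and 0 after OMV-SIRP-G. The PBS and OMV-SIRP libraries covered the same range, while OMV-SIRP-G held both the highest library and 2 libraries with no read. OMV-SIRP-G replicate 1 alone gave 75.8% of the 1372 Krt8 reads. Krt18 was at 0, 2.18 and 2.82 FPKM after PBS, at 0.799, 3.34 and 7.25 after OMV-SIRP, and at 5.22, 0 and 0 after OMV-SIRP-G. Across the PBS and OMV-SIRP libraries that had both genes, the ratio of the Krt8 to the Krt18 level was 0.479 to 1.15, and in OMV-SIRP-G replicate 1 it was 6.7. The change of Krt8 was 0.12 ± 1.38 (SE) for OMV-SIRP against PBS (limma adjusted p = 0.991) and 0.48 ± 1.38 for OMV-SIRP-G against PBS (limma adjusted p = 0.861). Without OMV-SIRP-G replicate 1 the latter was -1.24 ± 0.72 (limma adjusted p = 0.313), so 1 library set its sign. Krt18 changed by 0.80 ± 0.85 and -0.32 ± 0.85 in the same comparisons, with limma adjusted p of 0.852 and 0.847. OMV-SIRP-G less OMV-SIRP was 0.36 ± 1.38 for Krt8 and -1.12 ± 0.85 for Krt18, with limma adjusted p of 0.905 and 0.460.

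Krt19, Krt20 and Cldn7 of B16-F10 TAM were highest in the same library. Krt19 was at 10.3 FPKM in OMV-SIRP-G replicate 1, which held 89% of its reads, against 1.04 and 0.21 in PBS replicate 3 and OMV-SIRP replicate 2 and no read in the other 6 libraries. Krt20 was at 3.24 FPKM there, with 94.1% of its reads, and at 0.208 in PBS replicate 2, the only other library with any. Cldn7 was at 4.05 FPKM there, with 83.3% of its reads, and at most 0.493 elsewhere. Krt7 had no read there and was at 0.0365 and 0.0943 FPKM in PBS replicate 3 and OMV-SIRP replicate 3. The 8 genes without Cdh1 summed to 63.2 FPKM in this library, from 1842 reads, and to 0 to 11.8 in the other 8. Its 2 fellow replicates, at 0.118 and 0 FPKM, were the lowest of all 9. Of the 9 genes, 5 had their highest B16-F10 value in OMV-SIRP-G replicate 1, and Cdh1, at 3.75 FPKM, was lower there than in its 2 fellow replicates.

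**Figure D2:**
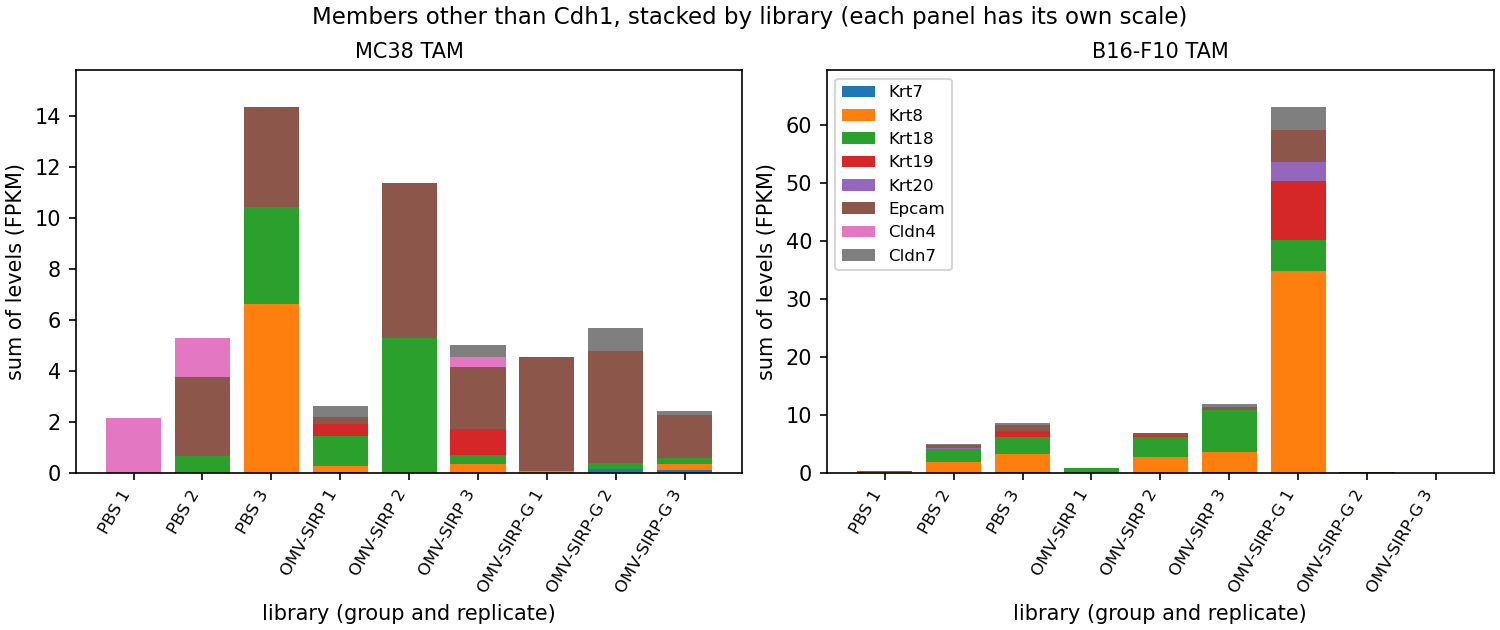
Stacked FPKM of the 8 genes other than Cdh1 in each library of MC38 TAM (left) and B16-F10 TAM (right), each panel with its own vertical scale starting at 0. The MC38 sums run from 2.15 to 14.4 FPKM with no order by group, and B16-F10 OMV-SIRP-G replicate 1 reaches 63.2 FPKM while the other 8 libraries stay at or below 11.8.

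Genes of the intestinal lining were high in that library too. A list of 12 such genes summed to 140 FPKM in OMV-SIRP-G replicate 1, with reads on 11 of the 12, and to 2 to 30.2 FPKM in the other 8 B16-F10 libraries. Tff3, a peptide of goblet cells, was at 50.8 FPKM against at most 1.8 elsewhere, and Car1, a carbonic anhydrase of colon epithelium, at 33.8 against at most 1.63. Cdx1, an intestinal transcription factor, was at 3.46 FPKM there and had no read in the other 8. Fabp1, a fatty acid binding protein of enterocytes, went the other way, with no read in OMV-SIRP-G replicate 1 and 14.4 to 27.4 FPKM after PBS. In MC38 TAM the same 12 genes summed to 0 to 7.36 FPKM, and the defining genes Tff3, Car1, Fabp1 and Gpa33 had no read in any library, nor had Cdx1 and Cdx2. The part of intestinal RNA in the B16-F10 keratin values was not tested. Without OMV-SIRP-G replicate 1 neither Krt8 nor Krt18 passed the limma test in any comparison.

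Epcam (ENSMUSG00000045394, chromosome 17, 87635979 to 87651129, plus strand) had reads in 8 of the 9 MC38 libraries, as many as Cdh1. It was at 0, 3.1 and 3.95 FPKM after PBS, at 0.27, 6.07 and 2.44 after OMV-SIRP, and at 4.48, 4.37 and 1.68 after OMV-SIRP-G. The 3 groups overlapped. Its change against PBS was 0.20 ± 0.75 (SE) after OMV-SIRP (limma adjusted p = 0.887) and 0.65 ± 0.75 after OMV-SIRP-G (limma adjusted p = 0.582), and OMV-SIRP-G less OMV-SIRP was 0.45 ± 0.75 (limma adjusted p = 0.885). In B16-F10 TAM Epcam was at 5.46 FPKM in OMV-SIRP-G replicate 1 and at 0 to 1.14 in the other 8 libraries, too low for testing.

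The claudins did not follow one another. Cldn4 (chromosome 5, 134945119 to 134946934, minus strand), a claudin of glandular epithelium, was at 2.15, 1.53 and 0 FPKM in the MC38 PBS libraries, at 0.386 in OMV-SIRP replicate 3, and had no read in the other 5 libraries. Cldn7 (chromosome 11, 69964779 to 69967885, plus strand) had no read in the PBS libraries and was at 0.418 and 0.491 FPKM in OMV-SIRP replicates 1 and 3 and at 0.93 and 0.152 in OMV-SIRP-G replicates 2 and 3. Where Cldn4 had its most reads Cldn7 had none. With no filter on low values, 5 more of the 9 genes could be tested in each model, and none passed: the smallest limma adjusted p was 0.265 in MC38 TAM and 0.547 in B16-F10 TAM.

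The promoters of these genes are shown because the libraries of the MC38 model hold RNA of the repressors that bind E-boxes, from cells not identified here. Whether these factors act on the 9 genes was not tested. In MC38 TAM Zeb2 was at 7.01 to 16.1 FPKM over the 9 libraries and Twist1, another factor of mesenchymal cells, at 3.59 to 22.1, and in B16-F10 TAM Zeb2 was at 1.97 to 7.86. Zeb2 rose in B16-F10 TAM after OMV-SIRP-G against PBS by the limma test, where 7.83% of all genes rose. The letters CACCTG, or CAGGTG on the opposite strand, were searched on both strands in the 250 bases before each start in the RefSeq promoter table of GRCm38.p6, which holds 7 of the 9 genes in 8 windows; Krt19 and Cdh1 are not in it. They were found in 6 of the 8 windows and in 17.2% of all 32851 windows of that length, a description of letters and not of binding. Epcam has 2 matches, 187 and 19 bases before its start, Cldn4 has 1 at 14 bases, and Krt20 has none. Krt8 has 1 at 111 bases and Krt18 1 at 214 bases. The 3 windows below run 5′ to 3′ on the strand of the gene and end at the base before the start, with the E-box letters in capitals: Epcam at chr17:87635729-87635978 on the plus strand, Cldn4 at chr5:134946935-134947184 on the minus strand and Krt20 at chr11:99438154-99438403 on the minus strand.
Epcam: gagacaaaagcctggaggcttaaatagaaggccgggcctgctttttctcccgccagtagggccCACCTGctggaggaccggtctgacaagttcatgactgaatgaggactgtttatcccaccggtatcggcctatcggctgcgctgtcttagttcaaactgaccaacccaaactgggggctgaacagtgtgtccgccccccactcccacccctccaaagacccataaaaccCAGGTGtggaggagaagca
Cldn4: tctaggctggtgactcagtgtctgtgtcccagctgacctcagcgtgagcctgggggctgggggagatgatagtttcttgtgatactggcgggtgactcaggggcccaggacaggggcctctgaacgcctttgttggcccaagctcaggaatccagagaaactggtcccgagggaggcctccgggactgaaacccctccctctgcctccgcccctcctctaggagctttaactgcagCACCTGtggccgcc
Krt20: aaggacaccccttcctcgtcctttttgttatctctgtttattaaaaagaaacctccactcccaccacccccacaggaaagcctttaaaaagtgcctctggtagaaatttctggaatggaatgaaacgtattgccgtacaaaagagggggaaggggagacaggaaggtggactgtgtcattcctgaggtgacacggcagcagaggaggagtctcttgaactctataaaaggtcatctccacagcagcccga

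Cdh1 (ENSMUSG00000000303, chromosome 8, 106603351 to 106670246, plus strand) was the member whose groups stood apart in MC38 TAM. It was at 1.73, 1.69 and 0 FPKM after PBS, from 152, 156 and 0 reads. It was at 15.4, 18.3 and 8.81 FPKM after OMV-SIRP, and at 28.7, 26.3 and 29.6 after OMV-SIRP-G, from 1990 to 2281 reads per library. The 3 groups did not overlap, and the order was PBS, OMV-SIRP, OMV-SIRP-G. As mean ± SD (n = 3) the levels were 1.14 ± 0.989, 14.2 ± 4.85 and 28.2 ± 1.73 FPKM. Cdh1 rose by 2.91 ± 0.41 (SE) on the log2(FPKM + 1) scale after OMV-SIRP (limma adjusted p = 0.00379) and by 3.91 ± 0.41 after OMV-SIRP-G (limma adjusted p = 0.000625). OMV-SIRP-G less OMV-SIRP was 1.00 ± 0.41 and did not pass the test (limma adjusted p = 0.378). Leaving out PBS replicate 3 and OMV-SIRP replicate 2, the libraries with the fewest genes detected, it was 1.20 ± 0.23 and passed (limma adjusted p = 0.0333), and the changes against PBS were 2.22 ± 0.25 and 3.43 ± 0.23 (limma adjusted p of 0.00302 and 0.000236). That setting was chosen after the data were seen, and OMV-SIRP replicate 2 had the highest Cdh1 of its group. With any 1 library left out the difference between the treatments did not pass, at limma adjusted p of 0.145 to 0.743. PBS replicate 3, the library with no Cdh1 read, where 3 reads would be 0.0421 FPKM, was also the library with the most Krt8.

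In B16-F10 TAM the Cdh1 differences were smaller. Cdh1 was at 2.58, 1.94 and 2.65 FPKM after PBS, at 5.65, 5.06 and 5.39 after OMV-SIRP, and at 3.75, 4.61 and 4.45 after OMV-SIRP-G. The groups again did not overlap, but here OMV-SIRP was the highest, so the order of the 2 treatments was the reverse of that in MC38 TAM. Cdh1 rose by 0.91 ± 0.17 (SE) after OMV-SIRP (limma adjusted p = 0.0293) and by 0.64 ± 0.17 after OMV-SIRP-G (limma adjusted p = 0.0334), and OMV-SIRP-G less OMV-SIRP was -0.28 ± 0.17 (limma adjusted p = 0.365). Both calls lay near the threshold, and both were lost with no filter on low values, with voom on the recovered reads, with a replicate block and with only 2 groups in the fit, at limma adjusted p of 0.0572 to 0.0919. The first was lost without any 1 of the PBS or OMV-SIRP libraries, with limma adjusted p up to 0.162, and the second without any PBS library or OMV-SIRP-G replicate 2 or 3, with limma adjusted p up to 0.132.

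**Figure D3:**
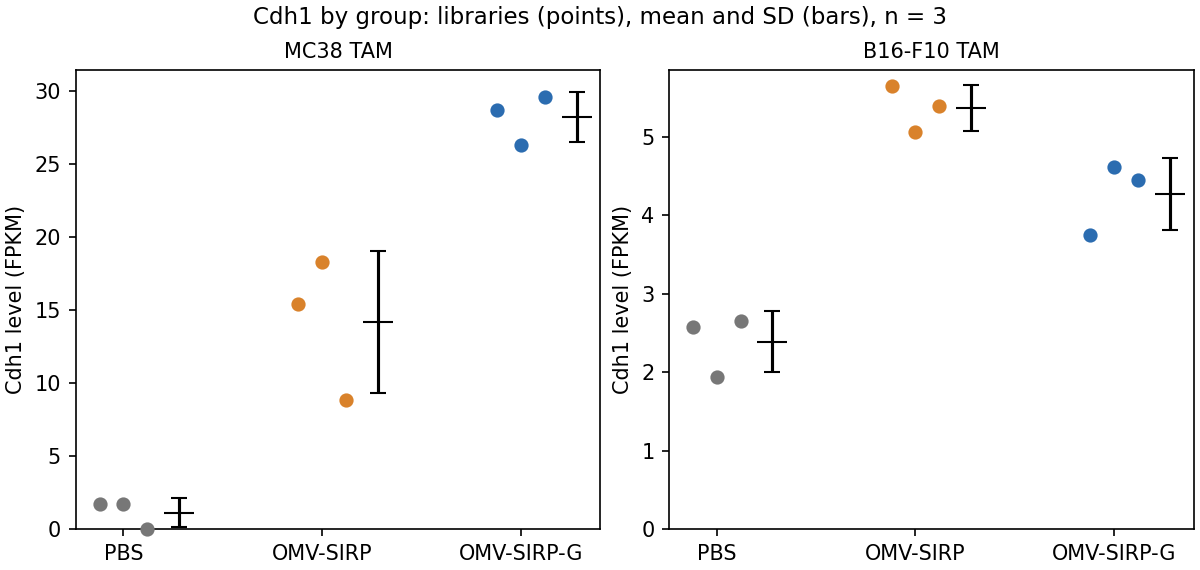
Cdh1 level in FPKM for each library (points) by group, with the mean and SD of 3 libraries (bars), in MC38 TAM (left) and B16-F10 TAM (right), each panel with its own vertical scale. In MC38 TAM the group means are 1.14, 14.2 and 28.2 FPKM, and in B16-F10 TAM 2.39, 5.37 and 4.27 FPKM.

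Set against all genes, 1 of the 3 tested members rose in MC38 TAM after OMV-SIRP and 0 of 3 fell, where 7.40% of 14089 genes rose and 3.49% fell. After OMV-SIRP-G 1 of 3 rose and 0 fell, where 13.1% rose and 6.86% fell. In B16-F10 TAM 1 of 3 rose after OMV-SIRP and 0 fell, where 0.885% of 12542 genes rose and 0.566% fell, and 1 of 3 rose after OMV-SIRP-G and 0 fell, where 7.83% rose and 7.28% fell. The member that rose was Cdh1 each time. Its groups lay above PBS without overlap, as did those of 15.5% and 25.5% of genes in MC38 TAM after OMV-SIRP and OMV-SIRP-G, and of 7.88% and 17.4% in B16-F10 TAM. With 3 members tested, 1 call is a count too small to set the list apart from these shares. Between the treatments 0 of 3 passed the limma test in either model; in MC38 TAM 0.149% of genes were higher after OMV-SIRP-G and 0.234% lower, and in B16-F10 TAM 6.35% and 5.62%. In MC38 TAM Cdh1 was higher after OMV-SIRP-G without overlap, as were 12.4% of genes, and Krt18 lower without overlap, as were 10.1%. Cdh1 had an unadjusted limma p of 0.0353 there, the only member of the 3 under 0.05. In B16-F10 TAM Cdh1 was lower after OMV-SIRP-G without overlap, as were 13.9% of genes, and 0 of the 3 members had an unadjusted limma p under 0.05. The comparisons with PBS share the PBS libraries, so the 2 rises of Cdh1 in a model are not independent. In MC38 TAM the scaling between libraries moved the median change of all genes: for OMV-SIRP against PBS it was 0.03 as deposited, -0.60 after rescaling to a fixed sum of levels (TPM) and -0.27 after rescaling to total reads, and genes that rose made up 67.9%, 14.3% and 29.9% of the calls. Relative to that median Cdh1 was higher by 2.88, 3.60 and 2.93, and it rose under each scaling.

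**Figure D4:**
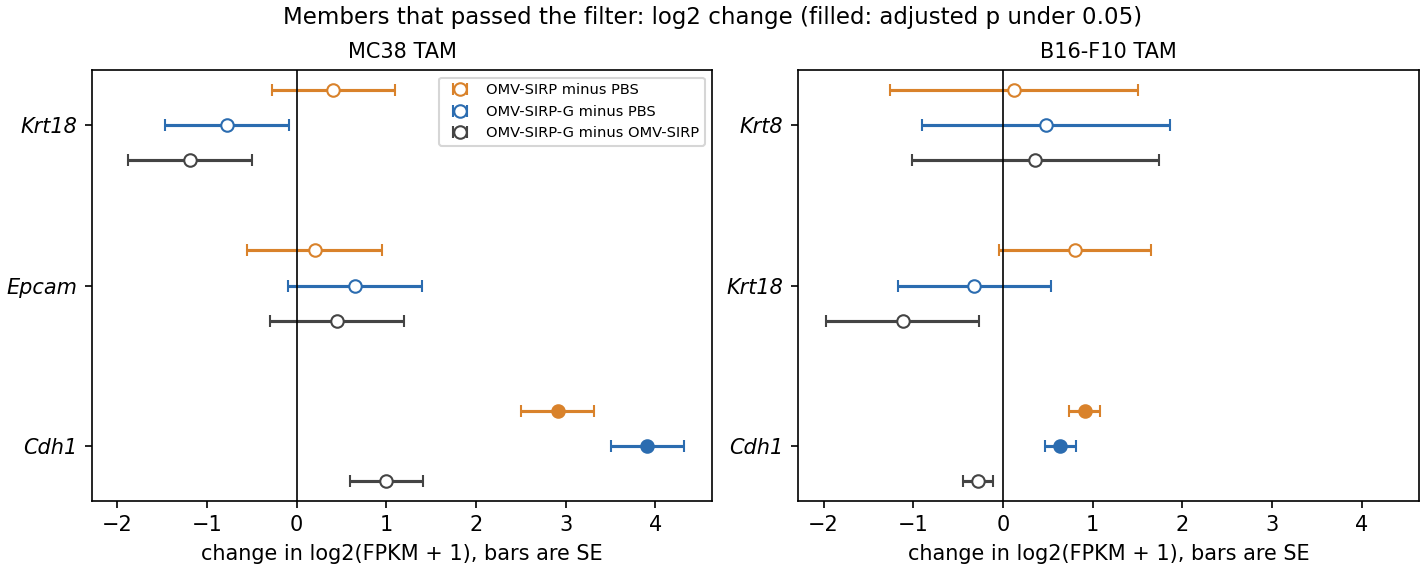
Change in log2(FPKM + 1) with its SE for the members that passed the filter in MC38 TAM (left) and B16-F10 TAM (right), in 3 comparisons; filled points have a limma adjusted p under 0.05. Filled points are those of Cdh1 against PBS, at 2.91 and 3.91 in MC38 TAM and at 0.91 and 0.64 in B16-F10 TAM.

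Other junction and epithelial genes give the setting of these changes, from lists chosen for their function. Of 18 further tight junction genes, 8 could be tested in MC38 TAM, where 2 rose after OMV-SIRP and 3 rose and 1 fell after OMV-SIRP-G. F11r, a junction adhesion molecule that leukocytes and platelets also carry, rose in both, from 3.66 ± 1.86 FPKM (SD, n = 3) to 12.4 ± 5.27 and 13.5 ± 0.994, while the scaffold gene Tjp1 fell after OMV-SIRP-G, from 15.5 ± 2.81 to 4.18 ± 0.998. Rescaled to TPM, the F11r rise after OMV-SIRP did not pass the limma test, 1 of the 8 rose and 2 fell there, and the counts after OMV-SIRP-G were as before. The median change of the 8 was 0.45 and 1.09, beside 0.03 and 0.07 over all genes tested. Of 15 genes of adherens junctions and desmosomes, 8 could be tested, and 1 rose after OMV-SIRP and 3 after OMV-SIRP-G, with median changes of 0.38 and 0.78. Rescaled to TPM, 1 rose and 2 fell after OMV-SIRP, Jup no longer among the calls, and the median was -0.00, while 4 rose after OMV-SIRP-G. As TPM the median over all genes tested was -0.60 after OMV-SIRP, and 14.3% of all calls were rises. After OMV-SIRP-G that median was -0.14, with 47.7% of all calls rises. Ctnna1 and Ctnnb1, the catenins that tie E-cadherin to actin, were at 38 to 50.2 and 39.4 to 70.7 FPKM over the 9 libraries and did not pass the test, though Ctnna1 was 1 of the 2 that fell after OMV-SIRP as TPM, and Pkp3, a plakophilin of desmosomes, rose after OMV-SIRP-G from 3.86 ± 2.06 to 13.8 ± 0.755 FPKM.

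Genes of epithelial surface proteins, membrane proteases and their inhibitors were the next list. Of 15 in MC38 TAM, 9 could be tested, and 1 rose after OMV-SIRP and 3 after OMV-SIRP-G, with median changes of 0.75 and 0.84. The counts were the same rescaled to TPM, with medians of 0.09 and 1.59, and with voom, with medians of 0.45 and 2.10. Over all genes tested the medians were -0.60 and -0.14 as TPM, and -0.32 and -0.02 with voom. Spint1, an inhibitor of membrane proteases that macrophages can also make, rose in both, from 3.69 ± 1.55 FPKM to 15.2 ± 4.51 and 25.7 ± 1.27 (SD, n = 3), the same order of groups as Cdh1. Without PBS replicate 3 and OMV-SIRP replicate 2, 3 of 8 surface and protease genes and 2 of 8 adherens junction and desmosome genes rose after OMV-SIRP, and of the 8 tight junction genes 1 rose and 1 fell. That setting was chosen after the data were seen. The share of all genes that passed under it is not given here, so these counts are not set against it. Of 14 transcription and splicing factors of epithelium only 1 could be tested, Klf5, at 0.647 to 2.92 FPKM, and 5 of the 14 had no read in any MC38 library. Of 14 further keratins 4 could be tested, and 1, Krt80, rose after OMV-SIRP, from 0.781 ± 0.335 to 3.84 ± 1.94 FPKM, a call lost on rescaling to TPM or to total reads. The only abundant keratin of the MC38 libraries was Krt14, a type I keratin of basal epidermis, at 28.9 to 96.6 FPKM in all 9; its usual partner Krt5 was at most 0.522 FPKM and Trp63, the basal cell factor, had no read. With all 9 libraries Krt14 did not pass the limma test in any comparison. Without PBS replicate 3 and OMV-SIRP replicate 2 it rose after OMV-SIRP, by 1.19 (limma adjusted p = 0.00769), and was lower after OMV-SIRP-G than after OMV-SIRP, at -1.05 (limma adjusted p = 0.0193). In B16-F10 TAM some of these genes fell after OMV-SIRP-G against PBS, where 7.28% of all genes fell. Of 6 testable tight junction genes 3 fell, F11r among them (1 fell as TPM, where F11r did not pass), and 2 fell without OMV-SIRP-G replicate 1. Of 9 adherens junction and desmosome genes 1 fell, Ctnnb1, a count near that share. Of 6 surface and protease genes 1 rose after OMV-SIRP, Spint1, from 4.95 ± 0.384 to 14.3 ± 2.14 FPKM, where 0.885% of all genes rose. In that list the integrin gene Itga6 rose after OMV-SIRP-G, from 2.87 ± 0.513 to 7.95 ± 0.77 FPKM, and between the treatments Itga6 was higher and Spint1 lower after OMV-SIRP-G.

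Macrophage markers were higher beside Cdh1 in MC38 TAM, while in B16-F10 TAM the group with the most marker RNA was not the one with the most Cdh1. All 12 of 12 macrophage markers rose in MC38 TAM after OMV-SIRP-G (11 as TPM or by total reads) and 10 of 12 after OMV-SIRP, and the marker sums of OMV-SIRP-G, the group with the higher Cdh1 level, lay within the range of OMV-SIRP. A large part of these sums was Lyz2, with means of 114 and 2747 FPKM in MC38 TAM after PBS and OMV-SIRP. In B16-F10 TAM 2 of 12 rose after OMV-SIRP and 11 of 12 after OMV-SIRP-G, while Cdh1 was higher after OMV-SIRP. The markers of dendritic and Langerhans cells, which are known to carry E-cadherin, summed to 140 to 208 FPKM in MC38 TAM after PBS, to 46.1 to 482 after OMV-SIRP and to 694 to 772 after OMV-SIRP-G. Most of that sum was Ccr7, a chemokine receptor that migrating dendritic cells and T cells carry, at means of 169, 191 and 686 FPKM, and Ccr7 did not pass the limma test in any of the 3 comparisons (adjusted p of 0.620, 0.0805 and 0.202). Of the 6 of these markers that could be tested, 3 rose after OMV-SIRP-G against PBS, Flt3, Itgae and Cd207, and 0 after OMV-SIRP, where 13.1% and 7.40% of all genes rose. Between the treatments 1 was higher after OMV-SIRP-G, Cd207, where 0.149% of all genes were. With voom 4 of the 6 were higher after OMV-SIRP-G than after PBS, and 4 than after OMV-SIRP, Ccr7 among them each time. Cd207, the langerin gene, was at 7.88 to 11.7 FPKM after OMV-SIRP-G, had no read after PBS and was at most 0.251 FPKM after OMV-SIRP. Which cells carried it was not tested. In B16-F10 TAM the same 8 markers summed to 133 to 138 FPKM after PBS, 170 to 194 after OMV-SIRP and 75.5 to 78.5 after OMV-SIRP-G, and Cd209a, a lectin of dendritic cells, rose after OMV-SIRP from 11.8 ± 1.97 to 34 ± 3.29 FPKM (SD, n = 3). Cd209a was the only 1 of the 7 tested there that rose after OMV-SIRP, and 0 fell. After OMV-SIRP-G 0 of 7 rose and 2 fell against PBS, and 0 rose and 6 fell against OMV-SIRP. T and NK cell markers summed to 123 to 215 FPKM in MC38 TAM after PBS, 202 to 486 after OMV-SIRP and 445 to 460 after OMV-SIRP-G, and neutrophil markers, 6 genes, to 244 to 540, 26 to 125 and 16.5 to 28.6. Of the 4 neutrophil markers tested in MC38 TAM, S100a8 and S100a9 fell after both treatments, where 3.49% and 6.86% of all genes fell. Retnlg rose after OMV-SIRP, from a mean of 1.20 to 55.6 FPKM, so the neutrophil list did not move as one. Of the 10 T and NK cell markers, 2 rose there after OMV-SIRP and 5 after OMV-SIRP-G, where 7.40% and 13.1% of all genes rose. In B16-F10 TAM these 10 summed to 229 to 283 FPKM after PBS, 91.6 to 105 after OMV-SIRP and 92 to 110 after OMV-SIRP-G. There 8 fell after OMV-SIRP, where 0.566% of all genes fell, and 10 fell after OMV-SIRP-G, where 7.28% fell. Neutrophil markers there summed to 8.94 to 19.7, 11.1 to 16 and 18.6 to 31.1 FPKM. Of the 4 tested in B16-F10 TAM, 0 passed after OMV-SIRP and 2 rose after OMV-SIRP-G against PBS, where 7.83% of all genes rose. The part of any of these cell types in the Cdh1 changes was not tested.

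**Figure D5:**
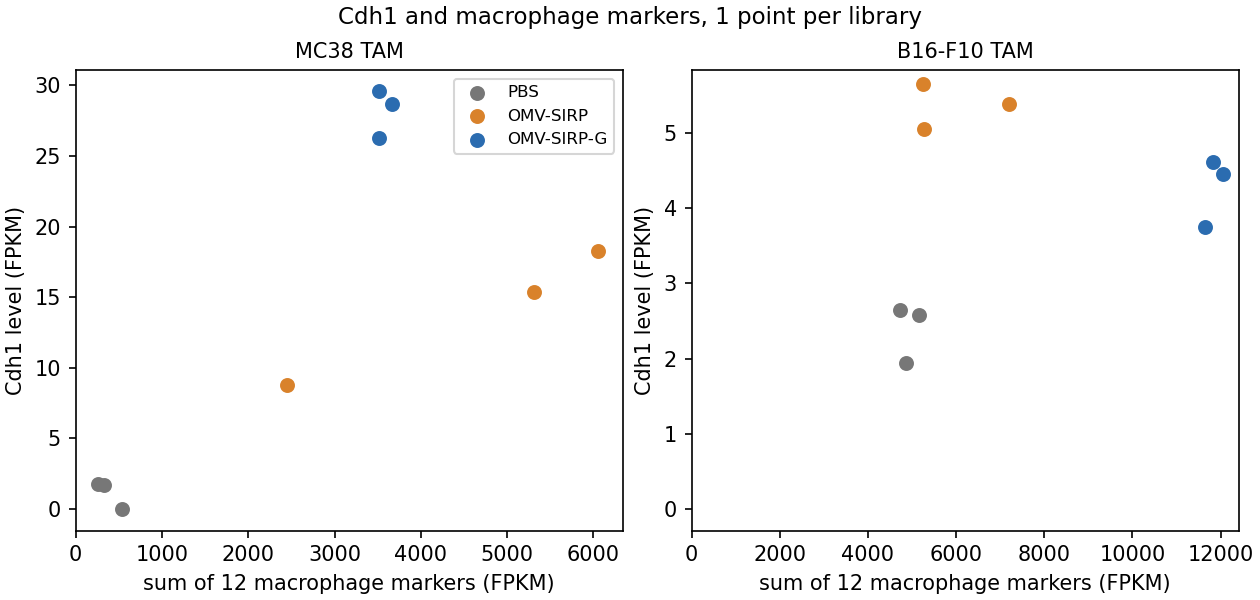
Cdh1 level against the sum of 12 macrophage markers, both in FPKM, with 1 point per library coloured by group, in MC38 TAM (left) and B16-F10 TAM (right). In MC38 TAM the OMV-SIRP-G libraries have the highest Cdh1 at marker sums of 3517 to 3663 FPKM, and in B16-F10 TAM the OMV-SIRP libraries have the highest Cdh1 at sums of 5247 to 7201.

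Markers of skin, vessel and connective tissue cells were checked in the same libraries. Fibroblast markers, 10 genes, summed to 30.5 to 69.1 FPKM in MC38 TAM after PBS, 90 to 154 after OMV-SIRP and 94.7 to 99.5 after OMV-SIRP-G. The highest of them was Thy1, at means of 25.3, 49.1 and 76.1 FPKM. Of the 7 tested there, 3 rose after OMV-SIRP against PBS. After OMV-SIRP-G 2 rose, Thy1 among them, and Dcn fell, with a median change below the 0.07 of all genes. Dcn was also lower after OMV-SIRP-G than after OMV-SIRP by the limma test. In B16-F10 TAM the 10 genes summed to 44.1 to 55.2 FPKM after PBS, 36.7 to 42.1 after OMV-SIRP and 21.5 to 25.1 after OMV-SIRP-G. Of the 5 tested in B16-F10 TAM, 1 fell after OMV-SIRP and 1 after OMV-SIRP-G, where 0.566% and 7.28% of all genes fell. Between the treatments 3 were lower after OMV-SIRP-G (2 without OMV-SIRP-G replicate 1), where 5.62% of all genes were. Endothelial markers, 6 genes, summed to at most 12 FPKM in MC38 TAM and 6.18 in B16-F10 TAM. Epidermal keratinocyte markers, 10 genes, summed to at most 1.2 FPKM in B16-F10 TAM, and in MC38 TAM their sum of 31.6 to 97.4 was mostly Krt14. Vim, the filament gene of mesenchymal and myeloid cells, was at 527 to 995 FPKM in all MC38 libraries and at 553 to 767 in all B16-F10 libraries, far above every keratin. In MC38 TAM it rose from 552 ± 24.8 FPKM after PBS to 907 ± 104 after OMV-SIRP and 902 ± 21.3 after OMV-SIRP-G (SD, n = 3), and the first of these calls was lost on rescaling to TPM or to total reads. In B16-F10 TAM Vim rose after OMV-SIRP-G against PBS, where 7.83% of all genes rose, and also as TPM, by total reads and with voom. Of the 3 mesenchymal factor genes tested in B16-F10 TAM, 2 rose, Vim and Zeb2, and 1 rose without OMV-SIRP-G replicate 1.

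The genes whose levels over the 9 libraries were most like those of the members were found by Pearson correlation, as a description. In MC38 TAM the mean log2(FPKM + 1) of Krt18, Epcam and Cdh1 was followed most closely, among 7203 protein-coding genes, by Pik3ap1, Jaml, Kcna3, Fyb and Dalrd3, with r of 0.987 to 0.981 over 9 libraries, and the gene ranked 100 still had 0.933. For Cdh1 alone, a choice made after the data were seen, they were Arf5, Arhgap25, Vdr, Lag3 and Irf5, with r of 0.995 to 0.989. Lag3, a lymphocyte receptor, was at 9.27 ± 3.23, 26 ± 3.51 and 38.6 ± 2.91 FPKM after PBS, OMV-SIRP and OMV-SIRP-G, and Irf5, a macrophage transcription factor, at 9.89 ± 3, 47.3 ± 14.5 and 70.9 ± 1.13 (SD, n = 3). In B16-F10 TAM the mean of Krt8, Krt18 and Cdh1 was followed by Zg16, Atg3, Yrdc, Tfpt and Bcl2a1d, with r of 0.922 to 0.847 among 6014 genes. Zg16, a secreted protein of intestinal goblet cells, was at 23.5 ± 40.7 FPKM after OMV-SIRP-G, a spread as wide as that of the keratins there. For B16-F10 Cdh1 alone they were Ehbp1l1, Cyp4f16, Slpi, Vps36 and Nfam1, with r of 0.977 to 0.904, none of them among the MC38 genes. All points of a model share its groups and scaling.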

How the data were processed

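RNA of tumour-associated macrophages was extracted with TRIzol and made into libraries with an NEBNext mRNA kit, per the labels' protocols. Per the submitters' processing notes, the build was GRCm38 and the tools were featureCounts 1.5.0-p3, HISAT2 2.0.5 and StringTie, named there without role or settings. The authors deposited FPKM per gene in 3 tables, each scaled apart. FPKM times gene length gave whole reads for 100% of values at a tolerance of 0.05, and these reads give the depths. The values already carried a scaling between libraries.

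Groups followed the labels, with 3 libraries each. limma 3.58.1 (R 4.3.3, trended and robust, with statmod 1.5.0) was fitted to log2(FPKM + 1) over the 9 libraries of a tumour model, on genes at 1 FPKM or more in at least 3 libraries, with Benjamini-Hochberg adjustment over all genes tested and a threshold of 0.05. A change on this scale understates that of low genes, and limits for a count of 0 (3 reads) cover counting error only. The code was tested on simulated data. Alternatives were another pseudocount, filters, scalings, voom on the recovered reads, a replicate block and each library left out.

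The members and lists were chosen with earlier results of these data known. Named beside the 9 members are at most 3 genes of each list, those with the highest mean FPKM in that model, and the 5 genes most like the members. Krt5, Trp63, Cd207, Itgae, Itga6, Jup, Car1, Gpa33, Cdx2 and the genes that mark single libraries were chosen after their values were seen, as were the genes at 0 in MC38 TAM. Values of 1 listed gene are not reported here.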

Additional observations from a re-analysis of the deposited data

Results flagged for a closer look

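The difference in Cdh1 between the 2 treatments went opposite ways in the 2 tumour models. OMV-SIRP-G less OMV-SIRP was 1.00 on the log2(FPKM + 1) scale in MC38 TAM, where all 3 OMV-SIRP-G libraries lay above all 3 of OMV-SIRP, and -0.28 in B16-F10 TAM, where all 3 lay below. Neither passed the limma test within its model, and the difference between the models was not tested, since the tables were scaled apart.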

How the results depend on the processing

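The MC38 Cdh1 rises passed the limma test under every alternative run and without each library, at 2.43 to 3.19 after OMV-SIRP and 3.43 to 4.15 after OMV-SIRP-G with 1 library left out. Of the members, 1 passed without each library in both MC38 comparisons with PBS and 0 between the treatments, where 1 did without PBS replicate 3 and OMV-SIRP replicate 2, a setting chosen after the data were seen. In B16-F10 TAM the members passing against PBS went from 1 to 0 with no filter (Cdh1 adjusted p = 0.0732 after OMV-SIRP and 0.0697 after OMV-SIRP-G), with voom (0.0685 and 0.0919), with a replicate block (0.0846 and 0.0637) and with only 2 groups in the fit (0.0676 and 0.0572), and were 0 to 1 with 1 library left out; between the treatments they stayed at 0. Members not called that turned sign were MC38 Epcam after OMV-SIRP (-0.10 as TPM, -0.00 by total reads) and B16-F10 Krt8 for OMV-SIRP, OMV-SIRP-G and their difference (pseudocount 0.1: -0.06, -0.58 and -0.52; voom: -0.68, -2.07 and -1.39). With 1 library left out, the ranges that crossed 0 were -0.52 to 0.85, -0.07 to 1.08 and -0.20 to 1.04 for MC38 Epcam, -0.09 to 0.90 for MC38 Krt18 after OMV-SIRP, -0.45 to 0.80, -1.24 to 1.35 and -1.36 to 1.22 for B16-F10 Krt8, and -1.20 to 0.12 for B16-F10 Krt18 after OMV-SIRP-G. Genes passing for MC38 OMV-SIRP against PBS numbered 1534, and 762 with no filter, 4148 as TPM, 2328 by total reads, 2516 with voom, 334 with 2 groups and 728 to 2002 with 1 library left out. For MC38 OMV-SIRP-G against PBS they numbered 2809, and 1725 with no filter, 4701 without both libraries and 1262 to 3884 with 1 left out. Between the MC38 treatments they numbered 54, and 16 with no filter, 184 as TPM, 200 with voom, 8 with the replicate block, 644 without both libraries and 0 to 189 with 1 left out. In B16-F10 TAM they were 182, and 112 with no filter and 73 to 181 with 1 left out, for OMV-SIRP; 1895, and 1177 to 2134, for OMV-SIRP-G; and 1502, and 925 with no filter, 991 with 2 groups and 1005 to 1495, between the treatments. The cause of these shifts was not tested. Same-numbered replicates showed little shared deviation (r of -0.03 to 0.08 over 18 pairs of libraries, 8 of which correlated best with their own number). The labels do not state a pairing, and this check cannot exclude one. edgeR was not run because the deposited unit is FPKM. Of the members below the filter, 5 in each model were fitted with no filter, from few reads per library, and 0 passed the limma test.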

Other observations

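Cdh1 was also present in the bone marrow populations of the series, with no tumour named in their labels, and it fell with treatment in one of them. In granulocyte-monocyte progenitors (GMP) it was at 12.5, 12.3 and 12.5 FPKM after PBS, at 4.68, 5.4 and 4.99 after OMV-SIRP, and at 7.26, 7.12 and 7.14 after OMV-SIRP-G, with no overlap between groups. Of all GMP genes tested, 16.4% lay below PBS without overlap after OMV-SIRP and 14.7% after OMV-SIRP-G. Between the treatments 18.6% were higher after OMV-SIRP-G without overlap. In a limma fit chosen after the data were seen Cdh1 fell by 1.16 on the log2(FPKM + 1) scale after OMV-SIRP (adjusted p = 2.4e-06), where 7.52% of genes fell, and by 0.71 after OMV-SIRP-G (adjusted p = 3.3e-05), where 5.22% fell. OMV-SIRP-G lay 0.44 above OMV-SIRP (limma adjusted p = 0.000726), where 6.70% of genes were higher. In monocytes Cdh1 was at 0.373 to 0.742 FPKM, too low for testing. GMP also held the type I keratin Krt18, at 4.53 to 5.99 FPKM in all 9 libraries, with its partner Krt8 at no more than 0.182 FPKM, and Krt18 did not pass the test in any GMP comparison. Monocyte Krt18 had means of 1.5, 0.974 and 0.515 FPKM after PBS, OMV-SIRP and OMV-SIRP-G, and the last differed from PBS by -0.69 ± 0.20 (limma adjusted p = 0.133). Krt19 and Krt20 had no read in GMP or monocytes.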
